A study of Homo sapiens with 9 samples.

Results

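The MYC network genes described here were MYC, MYCL, MYCN, MAX, MXD1, MXD3, MXD4, MNT and MLX, and what was measured at them was chromatin accessibility, by ATAC-seq, in T47D, an established human breast cancer line of luminal type. A called region was counted for a gene when it touched the gene's RefSeq span, or lay within 50 kb of either end with no other protein-coding gene having a nearer end. By this rule 24 of 62779 regions belonged to the 9 genes in hypoxic cells with shZHX2 (the shZHX2 list), 25 of 77451 in hypoxic cells with shCtrl (the hypoxia list) and 35 of 90962 in normoxic cells with shCtrl (the normoxia list). Overlapping regions of the lists merged into 97804 sites, of which 35 belonged to the 9 genes. Every group carried a short hairpin RNA: shZHX2, against the transcription factor gene ZHX2, or the control shCtrl. The labels give 3 samples a group, but the files hold 1 list for each, so no value below has a spread between replicates and none was tested. Neither the oxygen level nor the time in hypoxia is stated in the labels, and no group combined shZHX2 with normoxia.

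MYC, MYCN and MYCL are basic helix-loop-helix leucine zipper factors that activate genes of growth, ribosome assembly and metabolism, and they bind DNA as dimers with MAX. MXD1, MXD3, MXD4 and MNT also pair with MAX, occupy the same E-box sequence CACGTG, and recruit SIN3 corepressors. MLX stands beside MAX as a partner of MNT, MXD1, MXD4 and the glucose-sensing factors MLXIP and MLXIPL. In hypoxic tumour cells HIF factors are known to oppose or assist MYC depending on the subunit, partly through MXI1, a further MAX partner.

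The luminal label was checked against marker genes. Of 8 luminal markers, 7 had a region within 1 kb of a gene end in every list, and the other, ESR1, had a called region at an annotated start inside its span in every list. Of 5 basal or mesenchymal markers, 1 (shZHX2), 2 (hypoxia) and 2 (normoxia) had one. These were ZEB1 in every list and TP63 in both shCtrl lists, while VIM, KRT5 and KRT14 had none. No list had a region at the annotated start of TP63. Of 3 blood markers, 1 (shZHX2), 2 (hypoxia) and 2 (normoxia) had one: PTPRC in every list and CD3D in both shCtrl lists. The annotated start of PTPRC was not called in any list, and that of CD3D was called in both shCtrl lists. Of 2 endothelial markers none did. The same share over all protein-coding genes was 70.0% (shZHX2), 72.3% (hypoxia) and 74.2% (normoxia).

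The start of every network gene was accessible in every list, whatever the oxygen level or hairpin. All 9 genes had a region across the end of their span where transcription begins, in the shZHX2, hypoxia and normoxia lists; the strand of MYC, absent from the promoter table, is textbook knowledge. Over all 20037 protein-coding genes, 70.0% (shZHX2), 72.3% (hypoxia) and 74.2% (normoxia) had a region within 1 kb of either end. The 9 start regions were each called in all 3 lists, so every difference in calls lay away from the gene ends. Of the 26 sites farther from the ends, 13 were missing from at least 1 list.

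Promoter sequence was at hand for 8 of the 9 genes, from RefSeq on GRCh38.p14, and the accessible starts of MXD4, MNT and MLX carried the network's own binding sequence. The 250 bases upstream of the start were searched on both strands for the canonical E-box CACGTG, for the general E-box CANNTG, and for the letters ACGTG or else GCGTG, which form the core of the hypoxia response element bound by HIF. The windows of MXD4, MNT and MLX are printed because they hold the canonical E-box. MXD1 is printed for contrast, since it had neither that sequence nor a HIF core and yet the highest fold of the 9 start regions in each list. Capitals mark the canonical E-box and the HIF cores on either strand. The canonical E-box always contains the first HIF core on both strands and is also a general E-box.
MXD4: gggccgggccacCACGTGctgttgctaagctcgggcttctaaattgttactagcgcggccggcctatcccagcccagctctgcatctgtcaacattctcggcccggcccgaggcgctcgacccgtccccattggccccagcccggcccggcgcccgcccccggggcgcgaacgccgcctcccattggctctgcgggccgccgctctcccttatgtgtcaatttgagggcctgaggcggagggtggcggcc
MNT: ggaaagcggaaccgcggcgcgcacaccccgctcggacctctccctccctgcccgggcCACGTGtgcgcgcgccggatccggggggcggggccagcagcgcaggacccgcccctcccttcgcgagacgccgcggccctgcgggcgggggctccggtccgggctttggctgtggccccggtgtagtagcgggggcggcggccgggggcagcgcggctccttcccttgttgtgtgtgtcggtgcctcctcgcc
MLX: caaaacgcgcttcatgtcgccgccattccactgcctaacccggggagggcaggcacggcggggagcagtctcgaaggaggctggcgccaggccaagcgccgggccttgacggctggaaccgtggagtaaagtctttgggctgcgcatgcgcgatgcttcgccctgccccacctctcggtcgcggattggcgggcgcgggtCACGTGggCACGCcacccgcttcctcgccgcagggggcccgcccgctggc
MXD1: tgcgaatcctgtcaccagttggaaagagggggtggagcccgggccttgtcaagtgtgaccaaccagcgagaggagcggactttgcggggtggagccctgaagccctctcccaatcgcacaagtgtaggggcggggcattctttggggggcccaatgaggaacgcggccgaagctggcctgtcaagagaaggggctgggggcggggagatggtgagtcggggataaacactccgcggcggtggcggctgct
The windows lie at chr4:2262110-2262359 on the minus strand for MXD4, chr17:2401061-2401310 on the minus strand for MNT, chr17:42566850-42567099 on the plus strand for MLX and chr2:69914859-69915108 on the plus strand for MXD1. All 250 bases of each lay inside the called region in every list. With the first base upstream of the start as position -1, the canonical E-box began at -238 in MXD4, at -193 in MNT and at -50 in MLX. In MLX the second HIF core also occurred, on the opposite strand, as CACGC beginning at -42.

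Among the other windows, MXD3 had the second HIF core at -32, and MAX had the first at -22 from one of its 2 annotated starts. MYCL, MYCN and MXD1 had general E-boxes alone, 1 in MYCL, 1 in MYCN and 3 in MXD1. Counting both MAX windows, the canonical E-box occurred in 3 of 9 windows (33.3%), against 7.37% of 22199 promoter windows of protein-coding genes. The ACGTG core occurred in 4 of 9, against 20.2%, the GCGTG core in 2 of 9, against 38.3%, and the general E-box in 7 of 9, against 58.1%. Median GC content was 70.4% over the member windows and 62.0% over protein-coding promoters. A match gives letters in a window and not a bound factor. The 250 bases before the second annotated MAX start, which lies farther into the gene, had no base inside a called region in any list, while those before the first were covered in full.

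The start regions differed in width and fold. MYC, MYCN and MNT had regions 2.79 to 3.59 kb wide with low fold enrichment over the local background, and MXD1, MXD4, MAX and MYCL had narrower regions of higher fold. MXD3 and MLX also had narrower regions, but with lower folds than those 4. The MXD3 folds were 4.61 (shZHX2), 4.12 (hypoxia) and 4.09 (normoxia). The MLX folds were 3.80 (shZHX2), 3.45 (hypoxia) and 4.14 (normoxia), and MYCN also had 3.45 in the hypoxia list. At MYC, the best known oncogene of the family, the region at the start was 2943 bp wide with a fold of 2.57 in the shZHX2 list, 2967 bp with a fold of 2.79 in the hypoxia list, and 3593 bp with a fold of 2.60 in the normoxia list. Among the gene-end regions of each list, 99.7% of 13472 (shZHX2), 99.6% of 14208 (hypoxia) and 99.9% of 14866 (normoxia) were narrower than the MYC region. A lower fold than at MYC was found in 2.08% (shZHX2), 5.77% (hypoxia) and 4.99% (normoxia) of them. The fold is the authors' own value for a region, relative to the local background of its list, so it is ranked here within a list and not compared between lists.

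MYCN, the family member named for neuroblastoma, had a start region of 2953 bp (shZHX2), 2844 bp (hypoxia) and 2864 bp (normoxia), wider than 99.7%, 99.4% and 99.4% of the gene-end regions of those lists. Its −log10 q, which grows with the evidence for a region, was 30.8 (shZHX2), 47.8 (hypoxia) and 54.2 (normoxia). It was the weakest start region of the 9 genes in each list, and 11.2% (shZHX2), 17.6% (hypoxia) and 19.9% (normoxia) of gene-end regions were weaker. That site also overlaps MYCNOS, a non-coding gene that runs across the MYCN start, so the call cannot be given to one of the pair.

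MNT, a widely expressed MAX partner and repressor, had a start region of 3049 bp with a fold of 3.51 (shZHX2), 3074 bp with 3.01 (hypoxia) and 2787 bp with 2.99 (normoxia). MXD1, the founding MXD repressor, had 1078 bp with a fold of 7.97 (shZHX2), 1016 bp with 8.24 (hypoxia) and 1532 bp with 6.99 (normoxia). MXD4 had a −log10 q of 995 (shZHX2), 834 (hypoxia) and 838 (normoxia), and MXD1 had 881 (shZHX2), 932 (hypoxia) and 761 (normoxia). By −log10 q the MXD1 and MXD4 starts stood above 96.4% or more of the gene-end regions of each list, and the MNT start above 70.0% (shZHX2), 56.7% (hypoxia) and 56.5% (normoxia).

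MAX, the shared partner of the family, had a start region with a −log10 q of 618 (shZHX2), 587 (hypoxia) and 610 (normoxia). At MYCL, the family member first found in lung cancer, it was 291 (shZHX2), 255 (hypoxia) and 291 (normoxia), and at MXD3 it was 274 (shZHX2), 276 (hypoxia) and 298 (normoxia). MLX had 79.7 (shZHX2), 74.3 (hypoxia) and 153 (normoxia), and 26.2% (shZHX2), 25.1% (hypoxia) and 41.0% (normoxia) of gene-end regions had a lower value. The end of COASY, the gene before MLX, lies 439 bp from that site. Within every list MXD1, MXD4 and MAX were the 3 strongest starts by −log10 q, and MYCN, MLX and MYC the 3 weakest.

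**Figure D1:**
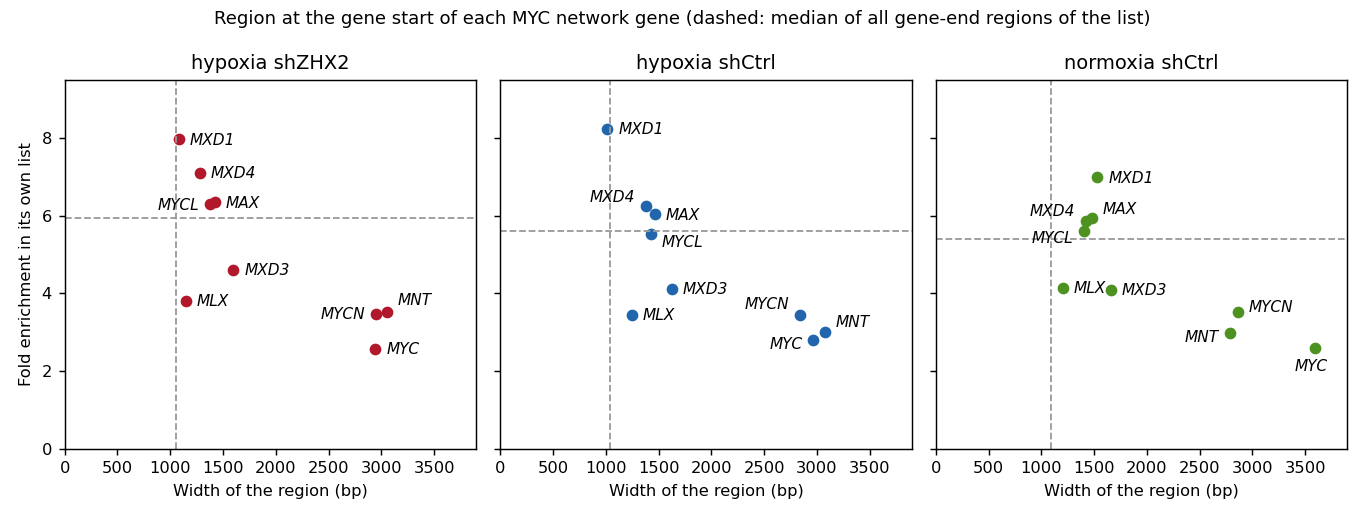
Width in bp (x axis) and the authors' fold enrichment (y axis) of the region at the start of each of the 9 genes, 1 panel per list, with dashed lines at the median of all gene-end regions of that list. In all 3 panels MYC, MYCN and MNT sit at widths of 2787 bp or more with folds of 3.51 or less, and MXD1 has the highest fold.

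Counts of regions differed most between genes. MAX, whose span of 96.6 kb is the longest, had 7 regions (shZHX2), 6 (hypoxia) and 10 (normoxia). Some of the MAX regions also lie within FNTB, a protein-coding gene. MYC had 3 (shZHX2), 3 (hypoxia) and 5 (normoxia), MYCL 3 (shZHX2), 4 (hypoxia) and 5 (normoxia), and MYCN 2 (shZHX2), 3 (hypoxia) and 5 (normoxia). MNT had 3 (shZHX2), 3 (hypoxia) and 4 (normoxia). MXD3 had 3 regions in each list, and MXD1, MXD4 and MLX had their start region and no other. Protein-coding genes had a median of 2 regions (shZHX2), 2 (hypoxia) and 3 (normoxia), and the 9 members a median of 3 (shZHX2), 3 (hypoxia) and 4 (normoxia). By role, the 3 MYC family genes had 8 regions (shZHX2), 10 (hypoxia) and 15 (normoxia), while the 3 MXD genes had 5 in each list.

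**Figure D2:**
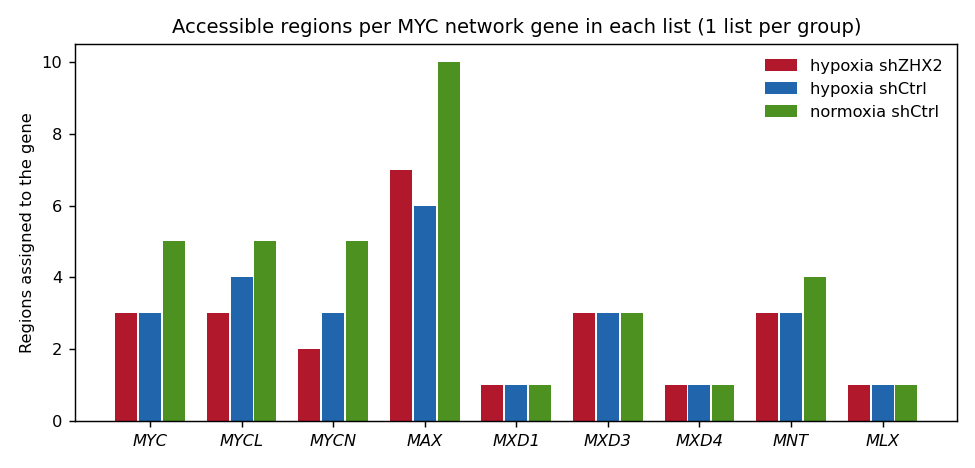
Number of called regions assigned to each of the 9 genes (y axis) in hypoxia with shZHX2, hypoxia with shCtrl and normoxia with shCtrl, 1 list per group and hence no error bars. MAX has 7, 6 and 10 regions in that order, MYC, MYCL and MYCN have 5 each in normoxia and fewer in both hypoxia lists, and MXD1, MXD3, MXD4 and MLX have the same number in every list.

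Regions within 50 kb that were nearer to another gene were found at most of the 9 genes, with a single region or with several. Within 50 kb of MLX, 9 (shZHX2), 11 (hypoxia) and 11 (normoxia) further regions were nearer to other genes. At MXD4 it was 2 (shZHX2), 5 (hypoxia) and 7 (normoxia), at MXD1 it was 1 in each list, and at MYC and MYCN none. At MNT it was 6 (shZHX2), 8 (hypoxia) and 6 (normoxia), and at MXD3 5 (shZHX2), 6 (hypoxia) and 5 (normoxia). At MAX it was 4 (shZHX2), 4 (hypoxia) and 5 (normoxia), and at MYCL 2 in each list. The limit of 50 kb fell close to a region at MYC. The nearest region beyond it, toward the non-coding gene PVT1, lay 51.0 kb away with a −log10 q of 63.3 (shZHX2), 50.9 kb away with 53.6 (hypoxia) and 50.9 kb away with 129 (normoxia). The farthest MYC region inside the limit lay 20.5 kb (shZHX2), 9.36 kb (hypoxia) and 45.8 kb (normoxia) away.

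**Figure D3:**
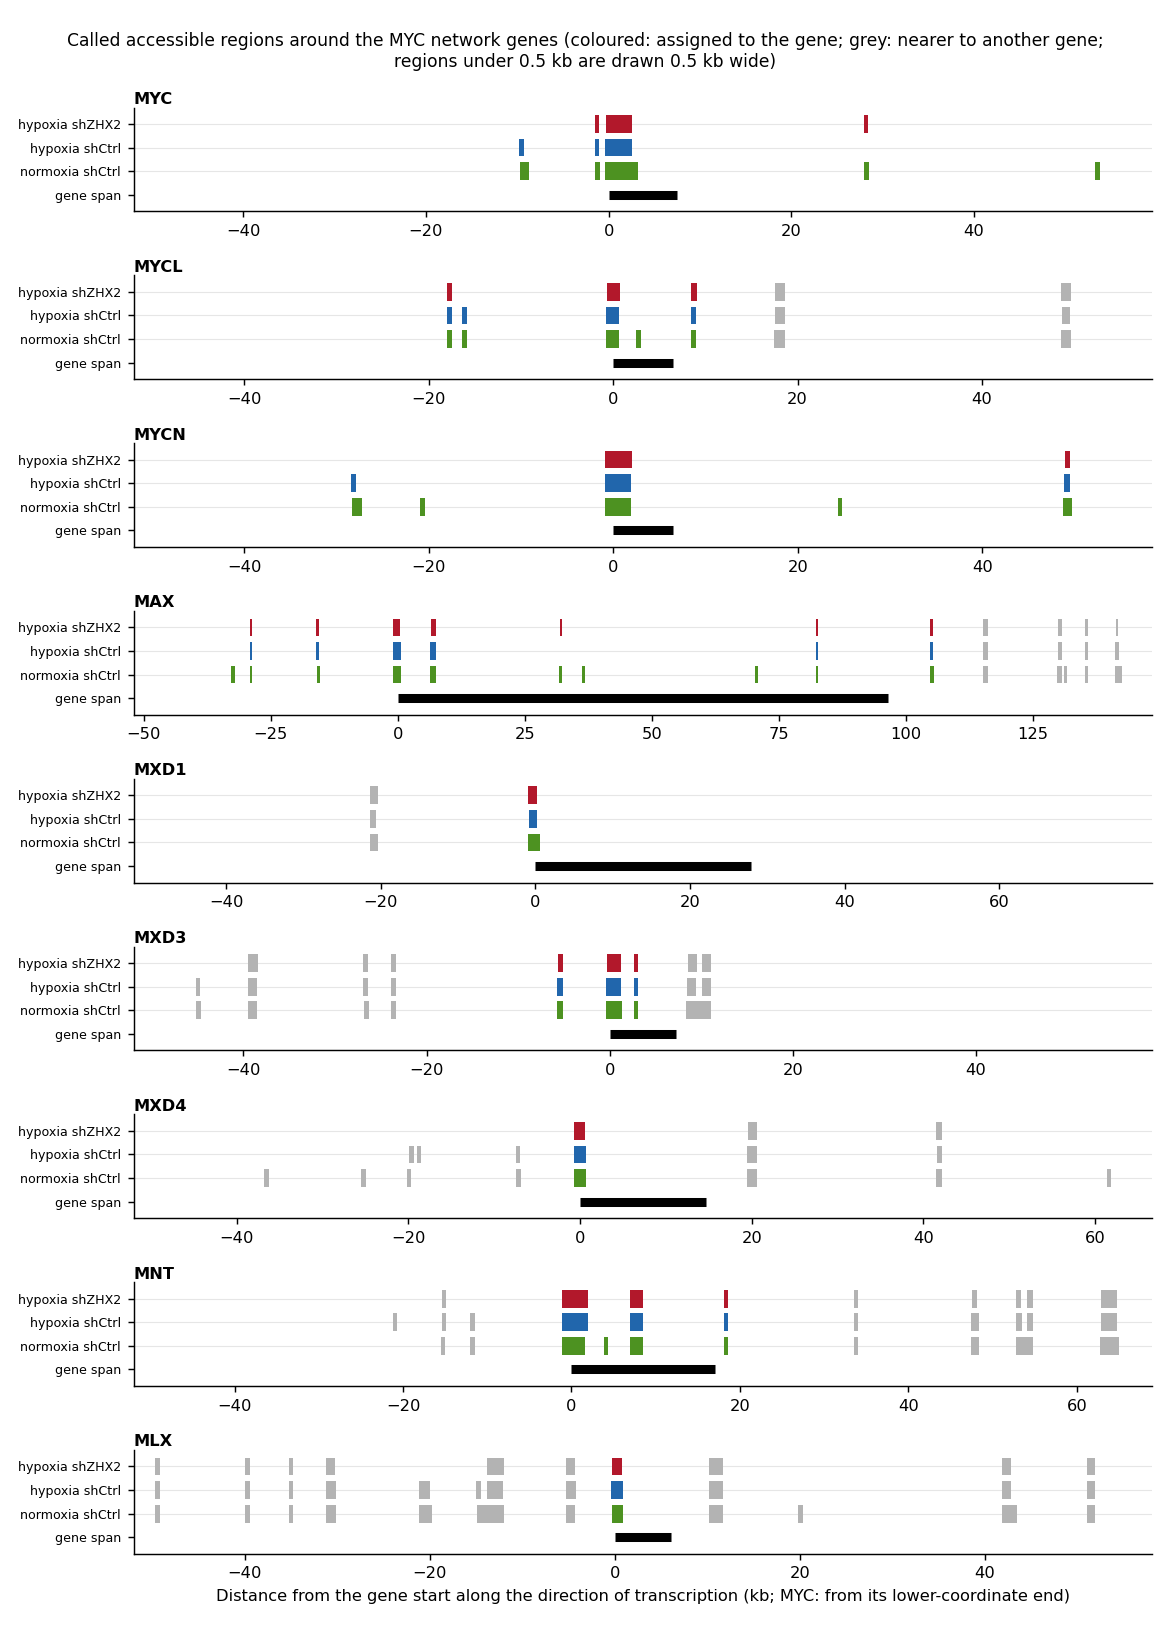
Called regions around each of the 9 genes by distance in kb from the gene start (x axis), with 1 row per list and the gene span in black; coloured regions were assigned to the gene, grey ones were nearer to another gene, and regions under 0.5 kb are drawn 0.5 kb wide. The start is called in all 3 rows of every gene, and the 13 sites missing from a row lie away from the ends, at MYC, MYCL, MYCN, MAX and MNT.

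Hypoxia was set against normoxia in shCtrl cells to ask which sites open or close when oxygen is low, and no network site was called in hypoxia without a call in normoxia. Of 25 member regions in the hypoxia list, 0 were not called in normoxia (95% Wilson interval 0% to 13.3%), against 6.44% of the whole list. If each member region had the rate of its own score decile, 0.512 would be counted. The count of 0 did not hold with the lists cut to the length of the shortest: it was 2 of 25 by score, against 10.7% of the list, and 3 of 22 (13.6%) by fold, against 12.4%. At the level of genes, in the full lists, it was 0 of 9, against 16.2% of all protein-coding genes with a hypoxia region.

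In the other direction, 10 of the 35 member regions of the normoxia list had no hypoxia call (28.6%, 16.3% to 45.1%), against 20.6% of the whole list. The interval holds the background share, covers counting error only, and takes regions as separate although several share a gene. By score decile, 6.21 would be counted. The 10 lay at 5 genes: 4 at MAX, 2 at MYC, 2 at MYCN, 1 at MYCL and 1 at MNT. Among all protein-coding genes with a normoxia region, 43.8% had at least 1 that hypoxia lacked.

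Of the 10, 8 were missing from both hypoxia lists, and 1 at MYC and 1 at MAX were called with shZHX2. At MYC, a region of 378 bp at chromosome 8, 127788729 to 127789106, 45.8 kb beyond the gene toward PVT1, had a fold of 3.52 and a −log10 q of 22.0 in the normoxia list. The other MYC region, the one also called with shZHX2, spanned 221 bp at 127763520 to 127763740 and had a fold of 3.54 and a −log10 q of 18.9. Both stood in the weaker part of the list, with 31.3% and 25.4% of normoxia regions at or below their scores.

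At MYCN the normoxia regions without a hypoxia call were at chromosome 2, 15919724 to 15920011, by the end of the non-coding MYCNUT, with a −log10 q of 11.0, and at 15964964 to 15965335, with 31.4. The region in MYCL, at chromosome 1, 39899075 to 39899281, was 207 bp wide with a −log10 q of 15.6 and lay where MYCL-AS1, a non-coding gene, overlaps the MYCL span. The 4 at MAX had −log10 q values of 16.3, 12.0, 23.2 and 11.6, of which the first 3 were inside the gene and the fourth 32.0 kb upstream of it. The first also lies within FNTB, a protein-coding gene. Over the whole normoxia list, the share without a hypoxia call was 73.5% in the lowest score decile, 57.4% in the second, 40.0% in the third and 22.9% in the fourth. Those 4 deciles held 8 of the 10 regions. The MYCN region with a −log10 q of 31.4 was in the fifth decile, where 9.44% of regions had no hypoxia call, a lower share than in the list as a whole.

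The region in MNT was the strongest of the 10 by −log10 q. It spanned 357 bp at chromosome 17, 2396771 to 2397127, 3.93 kb inside the gene from its start, and had a −log10 q of 61.9 in the normoxia list, in the seventh score decile. In that decile 28 of 9096 regions (0.308%) had no hypoxia call. Its fold was 1.85, the lowest of the 10, and 0.467% of normoxia regions had a fold that low or lower. On either side of it, the MNT start region and a further region inside the gene were called in all 3 lists.

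**Figure D4:**
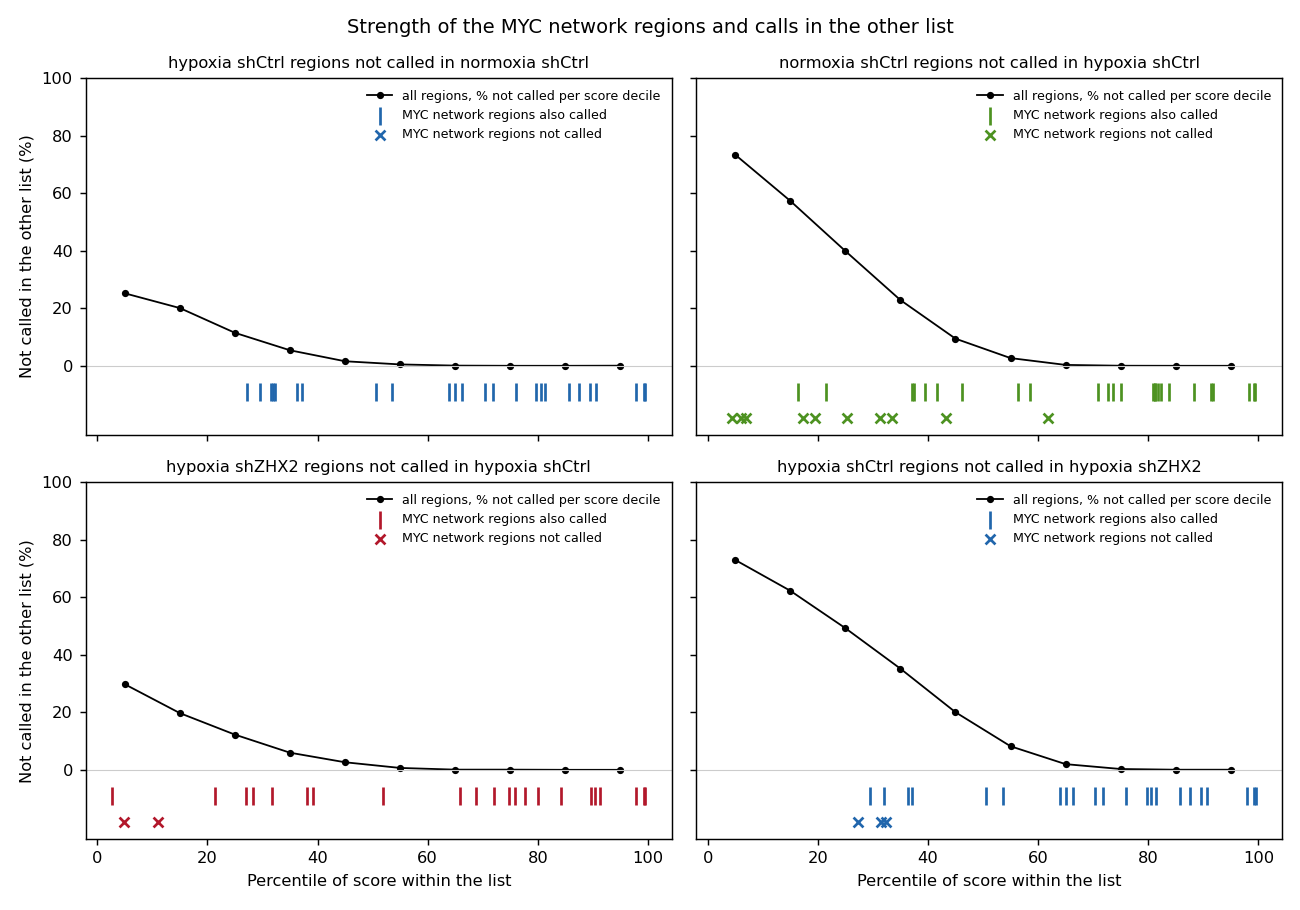
For 4 comparisons of lists, the line gives the share of all regions of a list that the other list did not call (y axis, %), by score decile (x axis, percentile of score within the list); ticks and crosses below it mark the scores of the MYC network regions that were also called and not called. In the normoxia list the crosses run from the lowest decile, where the line is at 73.5%, to a MYCN region in the fifth decile, where it is at 9.44%, and the MNT region at percentile 61.7, where it is at 0.308%.

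ZHX2 knockdown was set against the control hairpin in hypoxia to ask which calls differ between the hairpins, and few network calls did. Of the 25 member regions in the hypoxia list, 3 were not called with shZHX2 (12.0%, 4.17% to 30.0%), a lower share than the 25.0% of the whole list. By score decile, 2.98 would be counted. The 3 lay at MYC, MYCN and MYCL, 1 at each, and all were also called in normoxia. With all RefSeq genes competing for regions, 1 was left. The MYC site lay 9.36 kb from the gene in the hypoxia list, inside the non-coding CASC11, at chromosome 8, 127725763 to 127726070, with a fold of 3.82. Its call spanned 308 bp with a −log10 q of 23.8 in the hypoxia list and 1009 bp with 29.7 in the normoxia list. Such values belong to their own list, the lists differ in length, and a difference in width or −log10 q was not tested.

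The MYCN site lay 28.0 kb upstream of the gene, and the non-coding MYCNUT has an end nearer to it, at 7088 bp. It spanned 380 bp in the hypoxia list (chromosome 2, 15912192 to 15912571, −log10 q 24.3) and 1114 bp in the normoxia list (−log10 q 26.2). At MYCL it was a region of 258 bp with the same ends in both lists, chromosome 1, 39917896 to 39918153, with a −log10 q of 21.2 (hypoxia) and 15.2 (normoxia). A stronger MYCL site a little farther upstream, with folds of 10.1 (shZHX2), 8.53 (hypoxia) and 8.56 (normoxia), was called in every list. The 3 sites stood between percentile 27.3 and 32.3 of score in the hypoxia list, in deciles where 35.2% and 49.3% of regions had no shZHX2 call.

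Every hypoxia-list region of MAX, MXD1, MXD3, MXD4, MNT and MLX was also called with shZHX2. The 3 of 9 genes that had such a region compare with 44.7% of all protein-coding genes with a hypoxia region. In the reverse direction 2 of 24 member regions of the shZHX2 list were not called in the hypoxia list (8.33%, 2.32% to 25.8%), against 7.11% of the whole list, and 2 of 9 genes had one, against 15.8% of genes. One was the MYC site described above, called at chromosome 8, 127763451 to 127763773, with a −log10 q of 14.3 in the shZHX2 list. The other lay inside MAX at chromosome 14, 65070436 to 65070716, with 11.8. Both were also called in normoxia, with a −log10 q of 18.9 at MYC and 23.2 at MAX, so the hypoxia list alone lacked them.

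Hypoxia with shZHX2 differs from normoxia with shCtrl in both oxygen and hairpin, and every member region of the shZHX2 list was also called in normoxia. Of the 24 member regions of the shZHX2 list, 0 were not called in normoxia (0% to 13.8%), against 4.39% of the whole list, and 0 of 9 genes had one, against 10.8%. With the lists cut to equal length it was 2 of 24 by score, against 14.8% of the list, and 6 of 24 (25.0%) by fold, against 19.1%. Of the 35 normoxia regions, 11 had no shZHX2 call (31.4%, 18.6% to 48.0%), against 34.5% of the list. They lay at 5 of 9 genes, against 57.9% of genes.

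Across the 35 merged sites, 22 were called in all 3 lists (62.9%, against 58.4% of all 97804), 8 in normoxia alone, 3 in both shCtrl lists and 2 in the shZHX2 and normoxia lists. All 35 were called in normoxia, which called 92.9% of all merged sites. The normoxia list is the longest of the 3, read depth per list is unknown, and with lists of equal length, as given above, some member regions of both hypoxia lists had no normoxia call.

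Away from promoters, several of the strongest network sites were called in all 3 lists. Inside MAX, a region 13.8 kb from its far end that also lies within FNTB had folds of 8.84 (shZHX2), 7.23 (hypoxia) and 7.94 (normoxia). A region 1.08 kb beyond the far end of MNT, by SGSM2, had folds of 7.55 (shZHX2), 5.87 (hypoxia) and 6.19 (normoxia). The MYCN site 42.3 kb downstream, 358236 bp from the nearest other protein-coding gene end, spanned 530 bp with a fold of 5.88 (shZHX2), 693 bp with 6.45 (hypoxia) and 948 bp with 6.86 (normoxia).

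MXD3, an MXD repressor linked to dividing cells, had a site 5.15 kb upstream with folds of 6.53 (shZHX2), 5.38 (hypoxia) and 5.39 (normoxia). A site inside MXD3 had a −log10 q of 21.5 with a fold of 1.90 (shZHX2), 78.4 with 2.60 (hypoxia) and 91.5 with 2.60 (normoxia). MYC had a narrow site 1.06 kb before the gene, 3 bp from the end of CASC11, with a −log10 q of 192 (shZHX2), 200 (hypoxia) and 177 (normoxia).

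Most other genes of the MYC pathway also had a called end. Of 54 partners, cofactors, regulators and known targets, 51 (shZHX2), 52 (hypoxia) and 52 (normoxia) had a region within 1 kb of a gene end, against 70.0% (shZHX2), 72.3% (hypoxia) and 74.2% (normoxia) of all protein-coding genes. The one that differed between lists was TERT, which encodes the catalytic subunit of telomerase and is induced by MYC: its end was called in both shCtrl lists and not with shZHX2. CCND2, a cyclin, and CDKN1A, a cell cycle inhibitor repressed by MYC, had none in any list, although an annotated start of CDKN1A inside its span was called in all 3. All 7 partners outside the member list, all 9 cofactors and all 10 regulators of MYC protein had an end called in every list. For the partner SIN3B the called end was not its annotated start, which had no region in any list.

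In all, the 54 genes had 190 regions (shZHX2), 206 (hypoxia) and 225 (normoxia). Normoxia lacked 9 of the 206 hypoxia regions (4.37%). They lay at 7 of the 54 genes, among them EP400, a subunit of the TRRAP-containing remodelling complex, with 3. Of all protein-coding genes with a hypoxia region, 16.2% had at least 1 such region. Hypoxia lacked 30 of the 225 normoxia regions (13.3%), among them 3 at GSK3B and 3 at RCC1. MXI1, the MAX partner induced by HIF, had 4 regions (shZHX2), 4 (hypoxia) and 6 (normoxia).

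With shZHX2, calls were missing at 28 of the 206 hypoxia regions (13.6%), led by EP400 with 6 of its 13, and 9 of 190 shZHX2 regions had no call in the hypoxia list (4.74%). TXNIP, a target of MLXIP and MLX that restrains glucose uptake, had 3 regions (shZHX2), 2 (hypoxia) and 2 (normoxia), and ARRDC4, the other such target, had 3 in each list. In these 4 directions the shares of the 54 genes were lower than those of the whole lists given above. The shZHX2 list against normoxia went the other way. There 11 of 190 shZHX2 regions had no normoxia call (5.79%), against 4.39% of the whole list. They lay at 11 of the 54 genes, against 10.8% of all protein-coding genes with a shZHX2 region. Of the 225 normoxia regions, 51 had no shZHX2 call (22.7%), against 34.5% of the whole list. No test was made of these shares. Unlike for the members, no count by score decile was made for the 54 genes, so differences in score from the whole lists were not taken into account.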

How the data were processed

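ATAC-seq, in which a transposase cuts open chromatin, was done on 9 samples, and each of the 3 groups of 3 has 1 deposited list of regions in a broad-peak layout without a header; the group of a list is the one its deposited name gives. Tools and build, per the submitters' processing notes, were FastQC, Bowtie2, SAMtools, MACS2 and hg38, without versions or settings, and the way samples were combined is not stated. Each deposited region carries the authors' score, fold enrichment (a ratio to local background) and −log10 q. From the values, the score equals the −log10 q times 10, truncated, in at least 99.9% of regions.

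Regions sharing 1 bp counted as called in both lists. Genes came from RefSeq GRCh38.p14, promoters and strand from its promoter table; exons and introns were not used here. Regions were ranked within a list by −log10 q, in deciles. No test was run, since groups have 1 list each. Wilson intervals (95%, statsmodels 0.14.6) cover counting error only. Assignment and overlap were tested on simulated regions. The rule named all 9 members, pathway genes with an end called in fewer than 3 lists, regions missing from a list, end regions and the strongest regions; other pathway genes, and further shared sites, were named after their values were seen. The members and lists were chosen with earlier results of these data known.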

Additional observations from a re-analysis of the deposited data

How the results depend on the processing

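Counts of member regions per list stayed within 1.5 times under a window of 20 kb, distance to the gene span, and competition from all RefSeq genes. Members with a gene end called stayed at 9, and other pathway genes at 49 to 53, under both other end distances. Regions of the hypoxia list not called in normoxia (0) and regions of the shZHX2 list not called in normoxia (0) changed only when lists were cut to equal length: to 2 and 2 by score, and to 3 and 6 by fold. Normoxia regions without a hypoxia call (10) became 6 with 20 kb, 6 with all genes competing, 1 in the stronger 50% of the list, 4 at equal length by score and 3 by fold; those without a shZHX2 call (11) became 7, 5, 1, 5 and 4. Regions of the shZHX2 list not called in the hypoxia list (2) became 1 with 20 kb, 0 in the stronger 50% and 5 at equal length by fold. Regions of the hypoxia list not called with shZHX2 (3) became 1 with all genes competing and 0 in the stronger 50%. At equal length by score, 2 of 25 hypoxia member regions were not called in normoxia, against 10.7% of the list, and 4 of 27 normoxia member regions were not called in hypoxia, against 11.0%. By fold these were 3 of 22 (against 12.4%) and 3 of 22 (against 12.6%), and shZHX2 member regions not called in normoxia were 6 of 24 (against 19.1%). No paired analysis was possible because each group has 1 list, and no sample could be left out. Depth per list is unknown.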
